A study of Homo sapiens with 5 samples.

Results

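The FOS, JUN and EGR genes are grouped here as immediate early transcription factors. Growth factors, calcium entry, stretch and stress switch many of them on within minutes through the ERK, JNK and p38 kinases, without new protein synthesis. Not all are alike: FOSL2 is slower, and resting cells express JUND steadily. FOS proteins (FOS, FOSB, FOSL1, FOSL2) pair with JUN proteins (JUN, JUNB, JUND) through leucine zippers to form the AP-1 factor, and EGR1, EGR2 and EGR3 are zinc finger proteins that bind GC-rich sites. In heart tissue many of these genes are known as early responders to load and hormones, and in mixed cultures many are transcribed by most cell types. The 10 genes were taken by symbol from the deposited tables, and all 10 were found among the 27139 genes listed.

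Messenger RNA came from H1, an established human embryonic stem cell line of wild-type genotype, at day 30 of differentiation towards heart muscle. In the YAPi group (3 libraries) the cells had received a YAP inhibitor together with Activin for 24 h. YAP switches on growth genes unless Hippo kinases keep it out of the nucleus, and Activin is a ligand of the TGF-beta family. In the GiWi group (2 libraries) the cells had received a GSK3 inhibitor and an inhibitor of Wnt/β-catenin signalling, with a labelled time of 48 h, so agents and time cannot be told apart. The study set the cardiomyocyte cultures made by these protocols side by side.

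The YAPi libraries held between 43661243 and 48825573.5 exon counts and the GiWi libraries 48309865.5 and 48904372. Replicate 3 of YAPi stood apart from replicates 1 and 2: across genes, its log2 CPM correlated with theirs at 0.982 and 0.983, against 0.999 between replicates 1 and 2. Cardiomyocyte markers were expressed in both groups, with TNNT2, cardiac troponin T, at 799, 790 and 315 CPM in YAPi and 905 and 891 CPM in GiWi. Whether each library is a culture of its own is not stated in the labels, and the p-values cover the variation among these 5 libraries alone, part of which may be technical. In bulk RNA, fewer cells of a type and less RNA per cell cannot be told apart. Unless FPKM is named, values are CPM scaled by TMM factors. A fold change is YAPi over GiWi, and its log2 is given ± SE from edgeR's quasi-likelihood test with Benjamini-Hochberg adjustment over all genes tested.

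Promoter windows of 4 of the factors are printed because they carry the elements through which such genes are known to be switched on, or, for JUND, because its transcript was the one that did not rise. The CArG box is the binding element of serum response factor, TGACTCA that of AP-1, TGACG the core of the cAMP response element, and GCGNGGGCG that of EGR proteins. Windows are RefSeq sequence of GRCh38.p14, from 250 bases before to 50 after an annotated start, on the strand of the gene. Capitals mark the CArG boxes in EGR1 (chr5:138465229-138465528, plus strand) and in the third, most downstream start of EGR2 (chr10:62816317-62816616, minus strand), the AP-1 element in FOSL2 (chr2:28392608-28392907, plus strand) and TGACG on either strand in JUND (chr19:18281573-18281872, minus strand), where a pair of matches overlaps.
EGR1: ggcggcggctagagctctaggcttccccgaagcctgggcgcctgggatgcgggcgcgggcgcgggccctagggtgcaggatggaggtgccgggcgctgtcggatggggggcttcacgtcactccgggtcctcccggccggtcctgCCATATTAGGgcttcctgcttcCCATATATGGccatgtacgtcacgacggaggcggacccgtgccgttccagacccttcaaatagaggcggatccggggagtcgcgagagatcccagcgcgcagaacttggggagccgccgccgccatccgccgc
EGR2: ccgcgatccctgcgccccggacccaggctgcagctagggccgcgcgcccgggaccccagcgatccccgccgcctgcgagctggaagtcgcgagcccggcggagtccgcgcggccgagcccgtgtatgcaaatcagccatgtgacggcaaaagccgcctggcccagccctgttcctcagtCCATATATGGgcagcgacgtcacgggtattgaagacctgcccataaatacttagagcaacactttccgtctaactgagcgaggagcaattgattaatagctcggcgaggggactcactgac
FOSL2: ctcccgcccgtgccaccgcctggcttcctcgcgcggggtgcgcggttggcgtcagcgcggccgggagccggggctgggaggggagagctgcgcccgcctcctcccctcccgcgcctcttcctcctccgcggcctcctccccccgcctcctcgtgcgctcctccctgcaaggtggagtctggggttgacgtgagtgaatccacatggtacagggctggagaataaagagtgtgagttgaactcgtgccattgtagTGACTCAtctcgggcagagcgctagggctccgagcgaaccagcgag
JUND: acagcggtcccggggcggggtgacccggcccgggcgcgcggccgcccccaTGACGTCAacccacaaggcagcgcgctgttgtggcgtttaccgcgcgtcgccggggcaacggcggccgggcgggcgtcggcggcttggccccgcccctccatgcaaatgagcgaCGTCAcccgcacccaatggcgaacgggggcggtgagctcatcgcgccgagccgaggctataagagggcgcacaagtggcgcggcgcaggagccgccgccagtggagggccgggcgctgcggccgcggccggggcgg

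RefSeq windows were matched for 8 of the 10 genes, 10 windows in all, since EGR2 has 3 starts; FOSL1 and EGR3 are the others. The EGR1 window held 2 CArG boxes, the first bases of which lie 105 and 83 bases before the start, and the third EGR2 window held 1, at 71 bases before it. A CArG box was found in 1.29% of 35116 RefSeq windows of the same length. TGACG on either strand was present in all single windows of FOS, FOSB, FOSL2, JUN, JUNB, JUND and EGR1 and in the third of EGR2, against 24.6% of all windows. TGACTCA was found in FOSL2, beginning 4 bases after the start, against 4.95% of windows, and GCGNGGGCG in EGR1 and the second EGR2 window, against 9.43%. These matches describe the letters of the windows, and binding was not measured. Elements more than 250 bases before a start were not searched, so a window without a match does not mean a gene without the element.

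**Figure D1:**
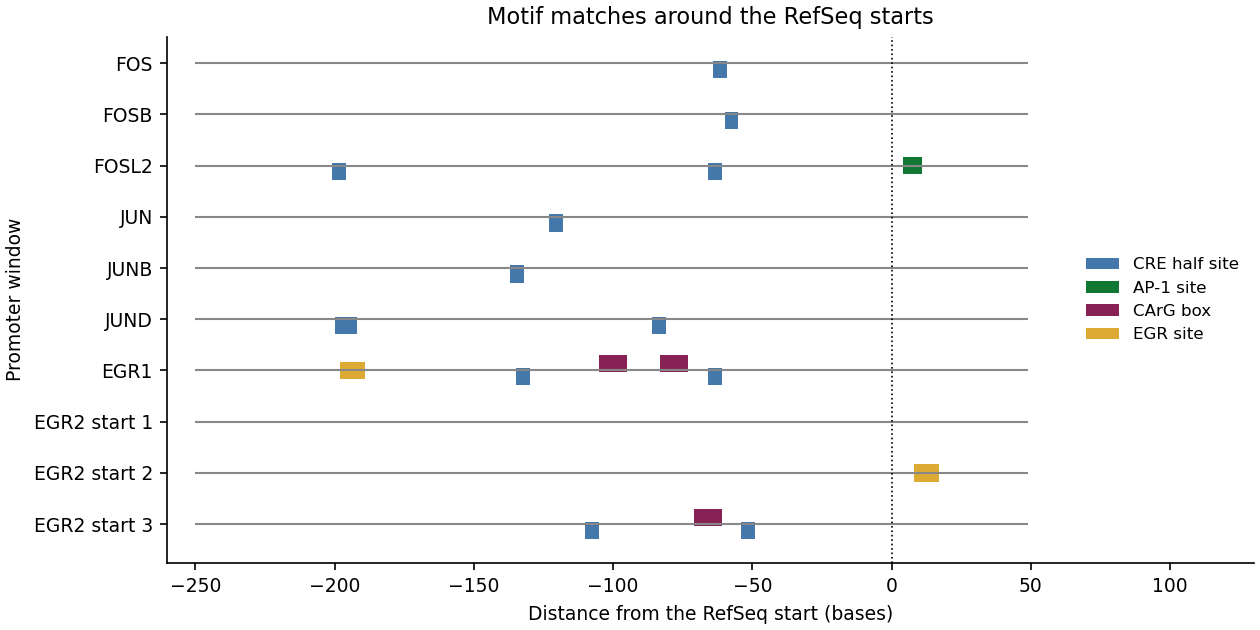
Motif matches on either strand in the 10 RefSeq promoter windows of 8 factors, by distance in bases from the annotated start; each grey line is a window and each box a match. CArG boxes lie in the windows of EGR1 and of the third EGR2 start, and TGACG in 8 of the 10 windows.

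Transcripts of 9 of the 10 factors were higher with YAPi than with GiWi, and JUND did not pass the test. The rises ran from 1.27-fold for JUN to 19.99-fold for FOSL1 and 20.2-fold for EGR2. Among the 17634 genes tested, 57.1% passed an adjusted p of 0.05 and 30.2% passed with a higher value in YAPi. The factors and the lists below were chosen with earlier results of these data known, so shares over all genes are given for description alone. A rise of at least 2-fold (a log2 fold change of 1) was found in 6 factors and in 15.2% of tested genes. All 3 YAPi libraries lay above both GiWi libraries for 9 factors and for 38.7% of tested genes. The filter on low counts kept all 10 factors, but FOSL1 passed it only through the YAPi libraries, so its call followed in part from the filter; of the other 9 factors, 8 were higher. The median log2 fold change was 1.32 over the 10 factors and 0.01 over all genes tested. Rises made up 52.9% of all calls. That share was 35.8% when only library size was used for scaling, 37.7% on log2(FPKM + 1) and 39.7% on log2(FPKM + 0.1), and the same 9 factors passed as higher each time.

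**Figure D2:**
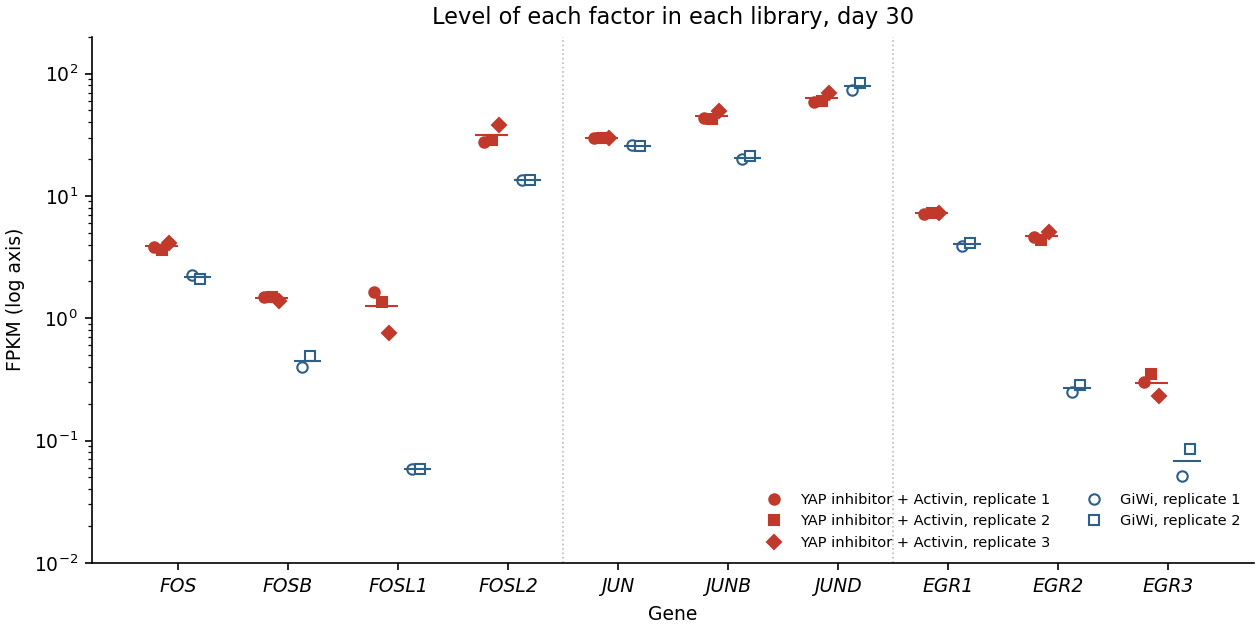
FPKM of each factor in each library on a log axis, with filled red symbols for YAP inhibitor + Activin and open blue symbols for GiWi; horizontal lines are group means. On this scale JUND is lower and the other 9 are higher in YAP inhibitor + Activin, without overlap. FPKM is not scaled by TMM factors, and in TMM-scaled CPM the JUND groups overlap. The share of all genes without overlap in FPKM was not counted. Within YAP inhibitor + Activin, replicate 3 has the lowest FOSL1 and EGR3 and the highest FOSL2 and JUNB.

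Among the FOS family, FOS itself, the short-lived founder of the family, measured 10.4, 9.92 and 11.3 CPM in YAPi and 5.45 and 5.26 CPM in GiWi. The YAPi libraries were close to each other and all above GiWi, and FOS rose 1.97-fold (log2 fold change 0.98 ± 0.10, edgeR adjusted p = 0.000791). FOSB, known for a long-lived splice form that accumulates with repeated stimulation in neurons, measured 7.01, 7.17 and 6.68 CPM in YAPi and 1.68 and 2.13 CPM in GiWi. It rose 3.65-fold (log2 fold change 1.87 ± 0.15, edgeR adjusted p = 0.000370), with groups that did not overlap. The gene table does not separate its splice forms.

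FOSL2, also called FRA2, a slower member with a known role in matrix gene expression, was the most abundant of the family in both groups. It measured 139, 145 and 192 CPM in YAPi and 60.7 and 62.9 CPM in GiWi. Replicate 3 was 1.35 times the mean of replicates 1 and 2, and both GiWi libraries lay well below all of YAPi (2.57-fold, log2 fold change 1.36 ± 0.15, edgeR adjusted p = 0.00113). FLJ31356, a gene on the opposite strand that overlaps the first part of FOSL2, had 5, 5 and 4 counts in YAPi and 1 and 4 in GiWi, against 3251 or more for FOSL2 in every library.

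FOSL1, or FRA1, a factor of epithelial and invasive cells that lacks a strong activation domain, was at the edge of detection in GiWi. It had 152.5, 117.5 and 62.5 counts in YAPi and 7 and 6 counts in GiWi. In CPM these were 3.23, 2.77 and 1.53 in YAPi and 0.131 and 0.116 in GiWi. The gene was above GiWi in all YAPi libraries, though scarce there too, and replicate 3 was at 0.511 times the mean of replicates 1 and 2. The fitted rise was 19.99-fold (log2 fold change 4.32 ± 0.46, 95% interval 3.18 to 5.46, edgeR adjusted p = 0.000891). Without replicate 3 of YAPi the log2 fold change was 4.58.

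Among the JUN family, JUN, the founding partner and a target of JNK, measured 125, 126 and 125 CPM in YAPi and 97.4 and 99.2 CPM in GiWi. The YAPi libraries hardly varied, and the rise was small, 1.27-fold (log2 fold change 0.35 ± 0.05, edgeR adjusted p = 0.00220). JUNB, which is known to restrain JUN as a partner and is itself strongly inducible, measured 99.6, 97.9 and 113 CPM in YAPi and 40.7 and 44.8 CPM in GiWi. It rose 2.42-fold (log2 fold change 1.28 ± 0.09, edgeR adjusted p = 0.000256), with every YAPi library at more than any GiWi library.

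JUND, the member of the family that resting cells express steadily, measured 144, 149 and 174 CPM in YAPi and 163 and 193 CPM in GiWi. The groups overlapped in CPM, since replicate 3 of YAPi lay above replicate 1 of GiWi. In FPKM they did not, with 58.6, 60.0 and 69.8 in YAPi and 73.9 and 84.4 in GiWi. FPKM is not scaled by TMM factors, and on log2(FPKM + 0.1) the median log2 fold change over genes was itself -0.12. The log2 fold change was -0.19 ± 0.11 with a 95% interval of -0.47 to 0.09 (edgeR adjusted p = 0.190). Without replicate 3 of YAPi, JUND fell by 0.28 on the log2 scale and passed (edgeR adjusted p = 0.000291); over all alternatives its adjusted p ran from 1.34e-11 to 0.700. With all 5 libraries and no replicate block, edgeR with TMM factors called 0 factors lower, also at an unadjusted p under 0.05, and DESeq2 called 0. JUND was called lower by edgeR with scaling by library size alone, by limma-voom with sample weights and by limma on log2(FPKM + 0.1). It was also called lower by edgeR with the replicate block (log2 fold change -0.27). That block drops replicate 3 of YAPi from the contrast, so it largely repeats the fit without that library.

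Among the EGR family, EGR1, the zinc finger factor most used as a readout of ERK activity, measured 28.2, 29.0 and 28.9 CPM in YAPi and 13.7 and 15.2 CPM in GiWi. The groups were tight and apart, with a rise of 1.99-fold (log2 fold change 0.99 ± 0.07, edgeR adjusted p = 0.000230). EGR2, or KROX20, a factor of hindbrain segments, Schwann cells and some myeloid cells, measured 16.2, 15.8 and 18.2 CPM in YAPi and 0.765 and 0.889 CPM in GiWi. EGR2 had the smallest p of the 10 factors and rose 20.2-fold (log2 fold change 4.33 ± 0.13, 95% interval 4.00 to 4.67, edgeR adjusted p = 2.55e-05).

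EGR3, a factor known from T cells and muscle spindles, was the scarcest of the 3 EGR factors described. It measured 1.51, 1.76 and 1.19 CPM in YAPi and 0.261 and 0.387 CPM in GiWi. These rest on 71, 75 and 48 counts in YAPi and 14 and 20 counts in GiWi, and all YAPi libraries were above GiWi, replicate 3 the least so. EGR3 rose 4.57-fold (log2 fold change 2.19 ± 0.31, 95% interval 1.42 to 2.96, edgeR adjusted p = 0.00237).

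**Figure D3:**
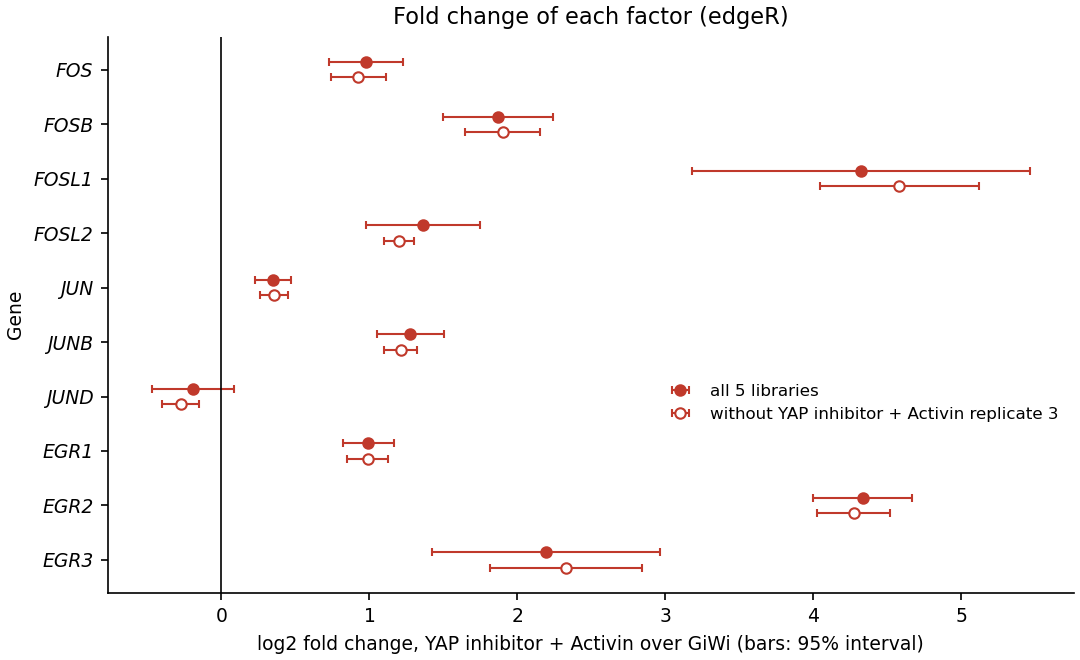
edgeR log2 fold change of each factor, YAP inhibitor + Activin over GiWi, with 95% intervals; filled symbols use all 5 libraries and open symbols leave out replicate 3 of YAP inhibitor + Activin. JUND alone has an interval that reaches 0 with all 5 libraries (-0.47 to 0.09), and without replicate 3 its interval is -0.40 to -0.15.

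Per length, on the authors' FPKM scale, the order of the factors differed between the groups. In YAPi the means ran from JUND (62.8 FPKM) over JUNB (45.1), FOSL2 (31.4), JUN (29.8), EGR1 (7.24), EGR2 (4.68), FOS (3.87), FOSB (1.46) and FOSL1 (1.25) to EGR3 (0.293). In GiWi they ran from JUND (79.1 FPKM) over JUN (25.8), JUNB (20.5), FOSL2 (13.5), EGR1 (4.01), FOS (2.17), FOSB (0.449) and EGR2 (0.267) to EGR3 (0.068) and FOSL1 (0.059). In both groups JUND was first, EGR1 came right after the 4 most abundant factors, and FOS lay well below FOSL2. JUN stood above JUNB and FOSL2 in GiWi and below them in YAPi, and EGR2 stood below FOS and FOSB in GiWi and above them in YAPi. Neighbours whose libraries overlapped were FOSL2 with JUN and FOSB with FOSL1 in YAPi, and EGR3 with FOSL1 in GiWi. For FOSB, FOSL1, EGR2 and EGR3 the FPKM table lists another transcript than the count table, with 3663 against 3770, 1402 against 1747, 2705 against 2989 and 3900 against 4330 bases, so their FPKM and CPM folds need not match.

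Within the JUN and EGR families, the shares of single members lay apart between the groups for JUNB, JUND, EGR1 and EGR2. JUNB made up 33.0, 32.1 and 33.1% of the summed FPKM of the JUN family in YAPi and 16.6 and 16.1% in GiWi. JUND made up 44.3, 45.3 and 47.0% in YAPi and 61.7 and 64.3% in GiWi, while JUN lay between 19.9 and 22.6% in YAPi and at 21.7 and 19.5% in GiWi. The JUN share thus overlapped between the groups, and those of JUNB and JUND did not.

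EGR2 made up 38.2, 36.4 and 40.2% of the EGR family in YAPi and 6.0 and 6.25% in GiWi, with EGR1 at 59.3, 60.7 and 57.9% in YAPi and 92.8 and 91.9% in GiWi. The ratio of EGR2 to EGR1 was 0.646 ± 0.047 in YAPi and 0.0664 ± 0.0024 in GiWi, and that of JUNB to JUN was 1.51 ± 0.13 in YAPi and 0.796 ± 0.044 in GiWi (SD, n = 3 and n = 2). In the FOS family, FOSL2 kept 80.0, 81.6 and 85.7% in YAPi and 83.3 and 83.6% in GiWi, overlapping, and FOS took 11.04, 10.3 and 9.39% in YAPi and 13.9 and 12.97% in GiWi. FOSL1 took 4.73, 3.83 and 1.71% in YAPi and 0.364 and 0.365% in GiWi. With shares of CPM in place of FPKM, the difference (YAPi minus GiWi, percentage points) was 1.30 for FOSL1, against 3.06 on FPKM, and -1.79 for FOS, against -3.16. CPM is not divided by transcript length, so it gives long transcripts more weight and the 2 kinds of share are unlike measures.

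Of the 13 shares and ratios of single genes tested by the exact two-sided permutation test, 7 reached p = 0.1, the smallest that 10 splits of 5 libraries allow, and p = 0.186 after Benjamini-Hochberg adjustment. They were the shares of FOS, JUNB, JUND, EGR1 and EGR2 and the ratios of JUNB to JUN and of EGR2 to EGR1. The FOSL2 share gave p = 0.7 and the JUN share p = 0.5 in the same exact test. The summed FPKM of the FOS family was 34.6, 35.2 and 44.2 in YAPi and 16.2 and 16.2 in GiWi, that of the JUN family 132, 132 and 149 in YAPi and 120 and 131 in GiWi, and that of the EGR family 12.1, 12.02 and 12.6 in YAPi and 4.18 and 4.51 in GiWi. FOS family transcripts thus stood at 0.275 ± 0.019 of JUN family transcripts in YAPi and at 0.129 ± 0.0085 in GiWi (SD, n = 3 and n = 2).

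**Figure D4:**
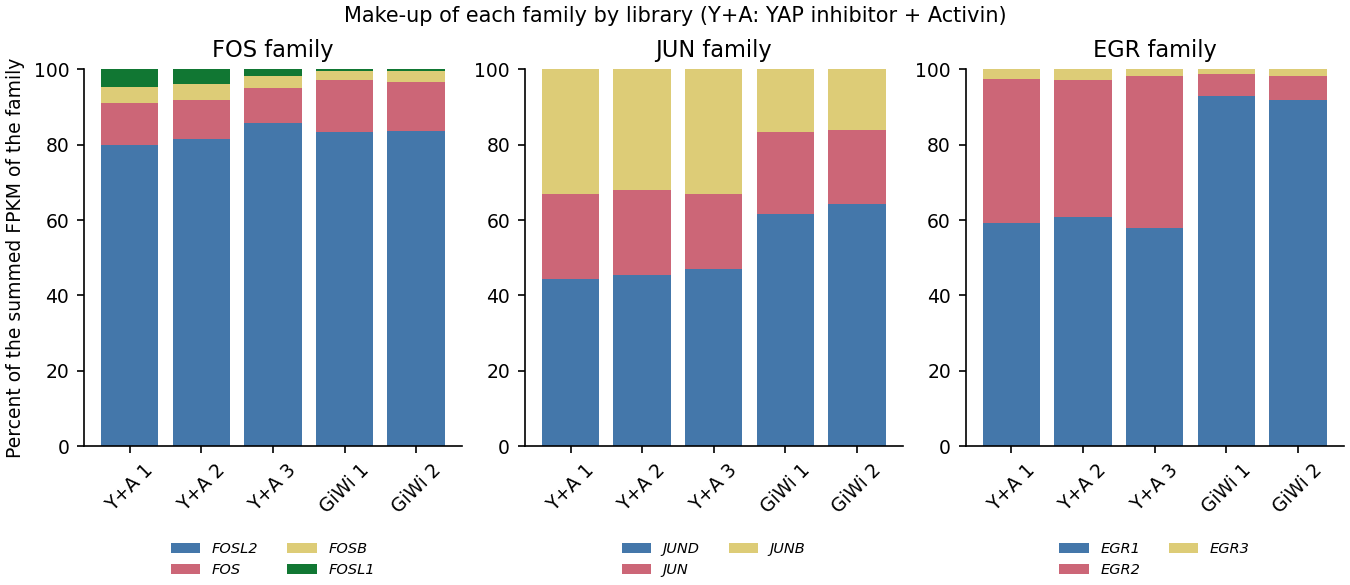
Share of each member in the summed FPKM of its family, in percent, 1 bar per library, with YAP inhibitor + Activin (Y+A 1 to 3) left of GiWi. JUNB takes 32.1 to 33.1% in YAP inhibitor + Activin and 16.1 to 16.6% in GiWi, and EGR2 takes 36.4 to 40.2% in YAP inhibitor + Activin and 6.0 to 6.25% in GiWi.

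Other bZIP genes of the wider AP-1 family were also more often higher than lower with YAPi. Of the 14 listed, 9 rose, 1 fell and 4 did not pass, where 30.2% of all tested genes rose and 26.9% fell; 5 rose without GiWi replicate 1 or 2. ATF3, a stress-induced repressor and partner of JUN, measured 15.6, 16.4 and 14.05 CPM in YAPi and 6.27 and 5.88 CPM in GiWi (log2 fold change 1.34 ± 0.10, edgeR adjusted p = 0.000297). MAFF, a small MAF protein, rose (log2 fold change 1.16 ± 0.13), as did the scarce BATF2 (2.72 ± 0.30). BATF and MAFA, named after their values had been seen, were at 0.116 CPM or less in GiWi. They passed the filter on low counts only through the YAPi libraries, so their calls as higher followed in part from the filter. The median log2 fold change of this list was 1.06, against 0.01 over all genes tested.

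Of 32 other immediate early genes listed, 30 were tested, of which 17 rose, 7 fell and 6 did not pass. Among all tested genes 30.2% rose and 26.9% fell, so falls were about as frequent as in genes at large. The list had a median log2 fold change of 0.52. EGR4 had 0, 0 and 2 counts in YAPi and 3 and 1 in GiWi, and ARC between 3 and 11 counts in every library, too few to test. CYR61, a secreted matrix protein that is also a known target of YAP, measured 167, 173 and 170 CPM in YAPi and 81.2 and 86.3 CPM in GiWi (log2 fold change 1.02 ± 0.06, edgeR adjusted p = 0.000120).

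SGK1, a kinase induced by serum and corticosteroids, fell to 23.6, 22.3 and 22.7 CPM in YAPi, against 57.8 and 56.5 CPM in GiWi (log2 fold change -1.32 ± 0.05, edgeR adjusted p = 5.25e-05). NR4A3, an orphan nuclear receptor, fell as well (-1.78 ± 0.13). Further genes of this list were named after their values had been seen. Among the NR4A receptors, NR4A1 also fell (-0.69 ± 0.11), and NR4A2 rose at a low level (1.48 ± 0.28), a call that did not hold when GiWi replicate 1 (edgeR adjusted p = 0.0612) or 2 (edgeR adjusted p = 0.0582) was left out, in a range of adjusted p over the alternatives from 3.54e-05. IER2, a rapid responder to serum, measured 27.5, 28.1 and 31.3 CPM in YAPi and 26.8 and 27.8 CPM in GiWi and did not pass (0.08 ± 0.08, edgeR adjusted p = 0.383). KLF6, a zinc finger factor, measured 59.5, 58.2 and 60.6 CPM in YAPi and 56.9 and 59.5 CPM in GiWi and did not pass either (0.03 ± 0.05, edgeR adjusted p = 0.663).

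Inhibitors that shut the response down were called about as often as genes at large. Of 19 listed, 6 rose, 6 fell and 7 did not pass, where 30.2% of all tested genes rose and 26.9% fell, with a median log2 fold change of -0.02. DUSP6, the phosphatase that inactivates ERK, measured 32.4, 33.7 and 40.5 CPM in YAPi and 5.71 and 5.99 CPM in GiWi (log2 fold change 2.60 ± 0.12, edgeR adjusted p = 7.63e-05). ZFP36, which destabilises immediate early messenger RNAs, rose (0.92 ± 0.07), as did DUSP10, a phosphatase of JNK and p38 (1.14 ± 0.13). NAB1, a corepressor that binds EGR proteins, fell to 30.8, 30.9 and 32.3 CPM in YAPi, against 71.9 and 62.9 CPM in GiWi (-1.11 ± 0.07, edgeR adjusted p = 0.000209). Its relative NAB2, itself an EGR target, fell too (-0.40 ± 0.07), and DUSP1 measured 19.8, 20.6 and 20.1 CPM in YAPi and 18.0 and 18.7 CPM in GiWi without passing (edgeR adjusted p = 0.0944); both were named after their values had been seen. DUSP1 passed as higher without replicate 3 of YAPi (edgeR adjusted p = 0.0488, in a range from 0.0298 to 0.963), and its log2 fold change was -0.05 when only library size was used for scaling.

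Kinases and promoter-bound activators upstream of these genes were mostly lower, by small amounts. Of 27 listed, 3 rose, 14 fell and 10 did not pass, against 30.2% of all tested genes that rose and 26.9% that fell. The median log2 fold change was -0.26, and none passed with a 2-fold change. RPS6KA1, the ERK-activated kinase RSK1, rose (log2 fold change 0.76 ± 0.07), and MAPK9 (-0.42 ± 0.05) and MAP2K4 (-0.38 ± 0.05), a JNK and the kinase that activates it, fell, as did RPS6KA2 (-0.38 ± 0.05). SRF, the factor that binds CArG boxes, was named after its values had been seen and fell to 104, 106 and 109 CPM in YAPi, against 133 and 141 CPM in GiWi (-0.37 ± 0.05, edgeR adjusted p = 0.00275). Without replicate 3 of YAPi 5 genes of this list rose, and without GiWi replicate 1 only 1 did.

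Heat shock genes, which respond to protein damage, were listed as a sign of general stress. Of 12, 7 rose and 5 did not pass, with a median log2 fold change of 0.31, where 30.2% of all tested genes rose and 26.9% fell. Without GiWi replicates 1 and 2, 3 and 4 rose, and without replicate 3 of YAPi 2 fell. When only library size was used for scaling, 3 rose and 2 fell, and with the replicate block 3 fell. BAG3, a cochaperone, rose (log2 fold change 0.45 ± 0.06, edgeR adjusted p = 0.00183), as did HSP90AA1 (0.54 ± 0.09), HSPB1 (0.36 ± 0.08) and the scarce HSPA6 (2.85 ± 0.39). HSPA6, at 0.075 and 0.116 CPM in GiWi, passed the filter only through the YAPi libraries, so its call followed in part from the filter. The HSPB1 call was lost without GiWi replicate 1 (edgeR adjusted p = 0.0695) and with scaling by library size alone (0.0558). HSPA1A, HSPA1B and DNAJB1 were named after their values had been seen and did not pass, with log2 fold changes of -0.10 ± 0.08, -0.0022 ± 0.13 and 0.02 ± 0.12. HSPA1A and HSPA1B are near-identical copies, so their split of reads is uncertain, and both passed as lower without replicate 3 of YAPi (-0.16 and -0.14, edgeR adjusted p = 0.0164 and 0.0299).

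**Figure D5:**
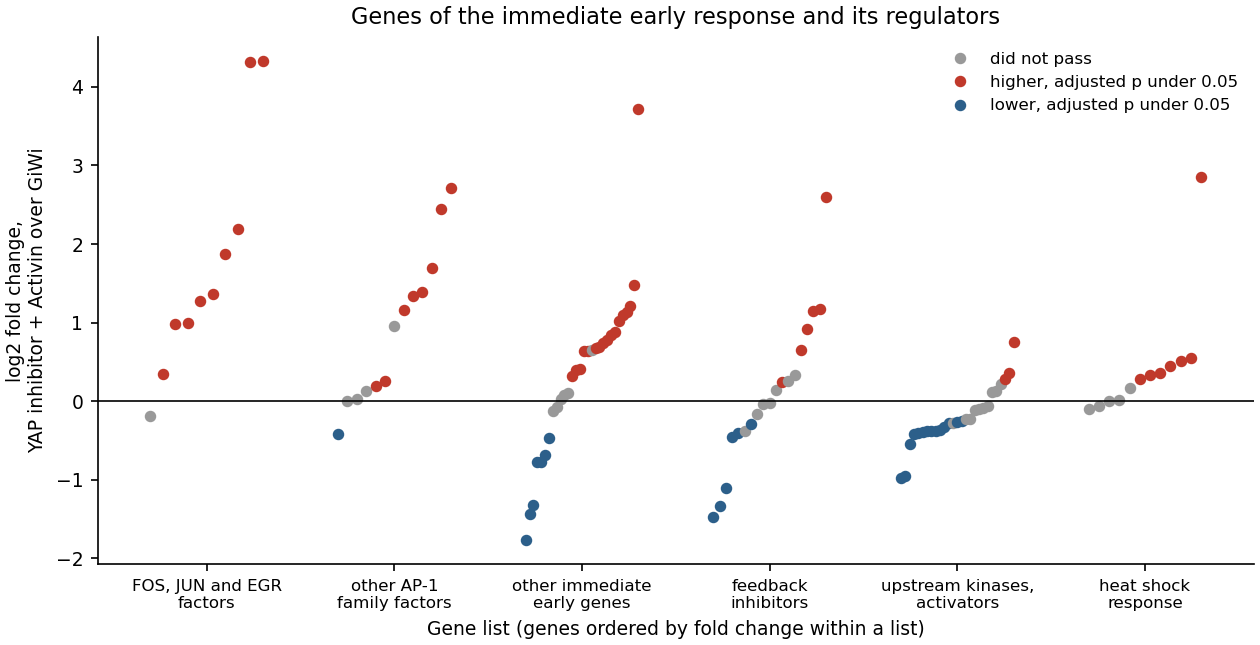
edgeR log2 fold change, YAP inhibitor + Activin over GiWi, of the tested genes of 6 lists, ordered within each list; red rose, blue fell and grey did not pass an adjusted p of 0.05. BATF, listed at 0 counts in both GiWi libraries, is not drawn. The FOS, JUN and EGR factors have 9 of 10 points red, and the upstream list has 14 of 27 blue.

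Markers of other cell types moved with the groups and with replicate 3. Among all tested genes, 30.2% were higher with YAPi and 26.9% lower. Some macrophage, gut epithelium, eye and pigment cell and neuron markers passed the filter on low counts only through the YAPi libraries. Calling those markers higher followed in part from the filter. The 10 macrophage markers were all higher and summed to between 226 and 523 CPM in YAPi and 6.20 and 6.84 CPM in GiWi, where 2 of the 10 had no count in either library. The 8 gut epithelium markers were all higher as well, between 318 and 650 CPM in YAPi and at 13.5 and 12.6 CPM in GiWi. Within YAPi, both sums were lowest in replicate 3, as were the neuron, eye and pigment cell, smooth muscle and cardiomyocyte sums and the factors FOSL1, EGR3, FOSB and JUN (0.993 times the mean of replicates 1 and 2). Squamous epithelium markers, led by KRT5, summed to 19.5, 20.7 and 367 CPM in YAPi and 2.80 and 2.59 CPM in GiWi, highest in replicate 3; 3 of 6 passed as higher. The fibroblast, endothelial and cycling cell sums were highest in replicate 3 of YAPi as well. Of the factors, FOSL2 (1.35 times the mean of replicates 1 and 2), JUND (1.18), JUNB (1.15), EGR2 (1.14) and FOS (1.12) were highest there.

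Eye and pigment cell markers (7 of 8 higher) summed to between 147 and 210 CPM in YAPi and 35.2 and 33.2 CPM in GiWi, and neuron markers (6 of 7 higher) to between 261 and 376 CPM in YAPi and 71.1 and 71.7 CPM in GiWi. Fibroblast markers (6 of 10 higher, 3 lower) summed to between 106698 and 127490 CPM in YAPi and to 59934 and 60246 CPM in GiWi. Of the endothelial markers 3 of 8 were higher and 4 lower, with sums between 326 and 413 CPM in YAPi and of 282 and 289 CPM in GiWi. KDR and TEK, both higher, made up nearly all of these sums. The 4 lower markers (TIE1, ROBO4, EMCN and CDH5) were at 3.75 CPM or less in every library. Of the smooth muscle markers 2 of 6 were higher and 2 lower, with sums between 1938 and 2273 CPM in YAPi and of 1498 and 1586 CPM in GiWi. Smooth muscle markers were thus called about as often as all tested genes. Cardiomyocyte markers (1 of 10 higher, 2 lower) summed to between 1712 and 4134 CPM in YAPi and 4955 and 4834 CPM in GiWi. MYH6 and RYR2 were the lower ones, with MYH6 at 123, 132 and 49.2 CPM in YAPi and 1879 and 1856 CPM in GiWi. In YAPi replicates 1 and 2, MYH6 fell by more CPM than the sum did. MYH7 was the higher one, at 1110.5, 1175 and 489 CPM in YAPi and 398 and 411 CPM in GiWi. Cycling cell markers (6 of 7 lower) summed to between 229 and 238 CPM in YAPi and 491 and 481 CPM in GiWi. The part of these cell types in the rise of the 9 factors was not tested.

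The genes with the pattern most like FOS over the 5 libraries, by Pearson correlation of log2(CPM + 0.5) among 9770 genes averaging at least 10 CPM, were TMEM138, WDR44, ADAMTS2, SCRG1 and RASSF1 (r from 0.9994 to 0.9999). TMEM138 measured 17.9, 17.4 and 19.2 CPM in YAPi and 10.6 and 10.4 CPM in GiWi. Those most like EGR1 were LARP6, SUSD2, MYDGF, LMBR1L and IL13RA1 (r from 0.9997 to 0.9999), with LARP6 at 63.4, 64.6 and 65.0 CPM in YAPi and 38.6 and 41.4 CPM in GiWi. With 2 groups and 5 libraries such values are common: 349 genes passed r = 0.99 with FOS and 607 with EGR1.

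In the count table, hg19 positions were as follows. FOS spans chromosome 14, 75745481 to 75748937, FOSB chromosome 19, 45971253 to 45978437, FOSL1 chromosome 11, 65659607 to 65667997, and FOSL2 chromosome 2, 28615779 to 28637516. JUN spans chromosome 1, 59246463 to 59249785, JUNB chromosome 19, 12902310 to 12904125, and JUND chromosome 19, 18390504 to 18392466. EGR1 spans chromosome 5, 137801181 to 137805004, EGR2 chromosome 10, 64571756 to 64576140, and EGR3 chromosome 8, 22545174 to 22550815. Each span is that of the listed RefSeq transcript, whose exons were counted, and none but FOSL2 overlaps another gene of the table.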

How the data were processed

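PolyA RNA of 5 H1 libraries was sequenced after a stranded kit, per the labels. Tools listed in the submitters' processing notes are STAR 2.5.1, FastQC 0.11.5, edgeR 3.16.1 and HOMER, with build hg19. The authors deposited reads in exons as estimated counts, in steps of 0.5 with 34.6% not whole, which were rounded here, and a table of FPKM. Whether reads were counted by strand is not stated in these sources, so FOSL2 and its antisense neighbour could share reads. Counts sum to 80.0 to 85.0% of the totals that FPKM imply. Emptied lines, 3 per file, were not used.

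YAPi was compared with GiWi by edgeR 4.0.16 (R 4.3.3): quasi-likelihood test, TMM factors, filterByExpr (minimum count 10, total 15), Benjamini-Hochberg at 0.05 over 17634 genes. Replicates differed by more than sampling noise (chi-square per degree of freedom 2.13 or more). Alternatives used limma 3.58.1, DESeq2 1.42.0, other scalings, filters and left-out libraries. The edgeR step was tested on simulated data. Named were all 10 factors, the 4 genes of each companion list with the smallest p, and the 5 genes most like FOS and EGR1, leaving out provisional symbols (LOC, LINC, MIR, SNOR, KIAA, orf); others are marked, and some genes this rule picks are not reported here. The factors and lists were chosen with earlier results of these data known. Figures used matplotlib 3.10.9.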

Additional observations from a re-analysis of the deposited data

How the results depend on the processing

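The 9 rises kept their direction and passed in all 15 alternatives; JUND was called lower in 5 of them, so the number of factors lower was 1 with scaling by library size alone, with limma-voom, on log2(FPKM + 0.1) and with the replicate block, and 0 to 1 with a library left out. The highest adjusted p of a rise was 0.0335 (JUN, library size alone, log2 fold change 0.16); that scaling moved the median of all genes to -0.18. On log2(FPKM + 1) low genes were understated (EGR3 0.28, FOSL1 1.07, EGR2 2.16). Over all genes, calls ran from 3301 to 6721 higher and from 2608 to 6394 lower with a library left out. These numbers were lowest without GiWi replicate 1 or 2, where the lone GiWi library is assumed to vary like the others. They were highest without replicate 3 of YAPi, a fit that also has fewer libraries. Why the numbers differ between these fits was not tested. Library size alone gave 3928 higher and 7036 lower, and DESeq2 5394 and 4525. On CPM in place of FPKM, differences in share (YAPi minus GiWi, percentage points) were -1.79 for FOS, 1.30 for FOSL1, 13.5 for JUNB, -15.3 for JUND and -31.4 for EGR1, against -3.16, 3.06, 16.4, -17.5 and -33.0 on FPKM. Shares of CPM are not per length, so these are unlike measures. Genes that did not pass turned to a call of the opposite sign for KLF6 with library size alone (-0.16) and for DNAJB1 with the replicate block (-0.10); HSPA1A was called lower in 6 alternatives, and the heat shock list had 0 to 3 genes lower. Of the other immediate early genes, 13 to 17 rose and 7 to 9 fell over all alternatives. The replicate numbers are not said to mark shared cultures, and deviations of same-numbered libraries correlated at 0.13 and -0.09; the replicate block drops replicate 3 of YAPi from the contrast and gave 6957 genes higher and 6619 lower. FOSL1 rests on 13 counts in GiWi and EGR3 on 34, which limits the precision of their folds.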
